A study of Saccharomyces cerevisiae with 6 samples.

Results

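The sulfur genes of budding yeast described here are 37 genes for sulfate and methionine uptake, sulfate reduction, and the synthesis and turnover of methionine, S-adenosylmethionine and cysteine, with their regulators. They were chosen by gene symbol from the annotation of the array, out of 5365 genes with a named probe. Of the 37, 36 had a probe, 1 probe each, and the sulfate permease gene SUL2 had no named probe and was not analysed. Of these, 23 were measured in each of the 3 replicates, as were 3613 genes in all.

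Thorium-treated cells of strain S288C, in exponential growth at an OD of 1 in glucose-rich YPD medium at 25 °C, received thorium, an actinide metal, at a final 5 mM and were harvested after 2 h. The untreated cells were the same strain in the same medium, kept for 2 h without thorium. PolyA RNA from thorium-treated cells (Cy5) and from untreated cells (Cy3) was hybridised together on each of 3 arrays, 1 per independent biological sample, and each array was read by the scanner at a high and then a low laser setting. All values below are log2 ratios of thorium-treated over untreated cells, the mean of the scans available in a replicate. Positive values likely mean more RNA in thorium-treated cells, since neither the direction nor the base of the logarithm is stated in the table and both were taken from the order of the channels and the range of the values. There was no array with the dyes exchanged, so a dye effect of a probe and an effect of thorium cannot be told apart. The RNA is that of whole cultures, in which a change in every cell and a larger one in a share of the cells cannot be told apart.

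Yeast takes up sulfate, activates it with ATP and reduces it through sulfite to sulfide, which is joined to a carbon chain made from aspartate to give homocysteine. Homocysteine is methylated to methionine, the precursor of the methyl donor S-adenosylmethionine, or passed through cystathionine to cysteine and glutathione. Transcription of most of these enzymes depends on the activator Met4, which is brought to promoters by Cbf1, Met31 and Met32, is aided by Met28, and is held in check by the ubiquitin ligase subunit Met30. In yeast this set of genes is known to be induced by sulfur limitation and by cadmium and arsenite.

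The 3 arrays were not alike. Values were kept for 60.7% to 79.3% of probes in the high power scans and 40.2% to 65.9% in the low power scans, and for the members in 24, 34 and 34 of 36 cases at the high setting and in 14, 18 and 28 at the low setting in replicates 1, 2 and 3. Across all 3613 genes, replicate 1 correlated with replicates 2 and 3 at Pearson's r of 0.09 and 0.02, while replicates 2 and 3 correlated at 0.56. Replicate 1 thus stood apart, and results are given with and without it where it changes a call. Across the 23 members the same correlations were 0.48, 0.60 and 0.62, and without the members farthest from 0, IRC7 and MET13, they were 0.24, 0.47 and 0.53 over 21 genes. These are correlations across genes that share arrays and are given as a description.

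**Figure D1:**
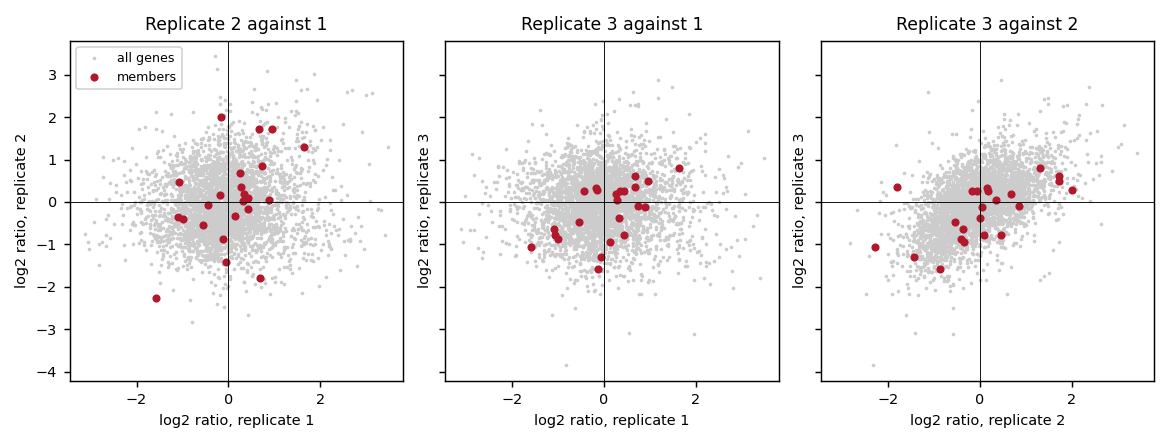
Log2 ratios of one replicate against another for all 3613 genes (grey) and the 23 members with a value in every replicate (red), each point a gene. All genes form a round cloud where replicate 1 is involved (r = 0.09 and 0.02) and an elongated one for replicates 2 and 3 (r = 0.56), while the members lie along the diagonal in each panel (r = 0.48 to 0.62).

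In thorium-treated cells the sulfur genes lay on both sides of 0. The MET10 subunit of sulfite reductase, the methylenetetrahydrofolate reductase MET13 and the methionine permease MUP1 had the highest means of the 23 members with 3 replicates. The cysteine lyase IRC7 had the lowest. As deposited, MET3 and MET14, at the head of sulfate activation, had means below 0 over the replicates available, but replicates on both sides of it. The median over the 23 members was -0.02, beside -0.09 over all genes tested, and the member medians of replicates 1, 2 and 3 were 0.26, 0.05 and -0.10. Means ran from -1.64 to 1.25, and 11 of 23 (47.8%) lay above 0 and 12 (52.2%) below, beside 43.5% and 56.5% of all genes. Tested with limma against 0 and adjusted by Benjamini-Hochberg over all genes, 0 of 23 members passed 0.05, as did 0% of all genes (smallest adjusted p = 0.271). At an unadjusted p under 0.05, 3 members lay higher and 3 lower, beside 5.7% and 8.11% of all genes. These counts were 4 and 3 without replicate 1, 1 and 1 without replicate 2, and 3 and 1 without replicate 3. With the median of each probe's array section subtracted, they were 5 and 3. All 3 replicates were above 0 for 6 members and below 0 for 6, or 26.1% each, beside 15.4% and 23.2% of all genes. A mean of at least 1 was had by 2 members (3.29% of all genes) and a mean of -1 or less by 1 (3.21%). The median SD over the replicates was 0.52 for the members and 0.52 for all genes.

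**Figure D2:**
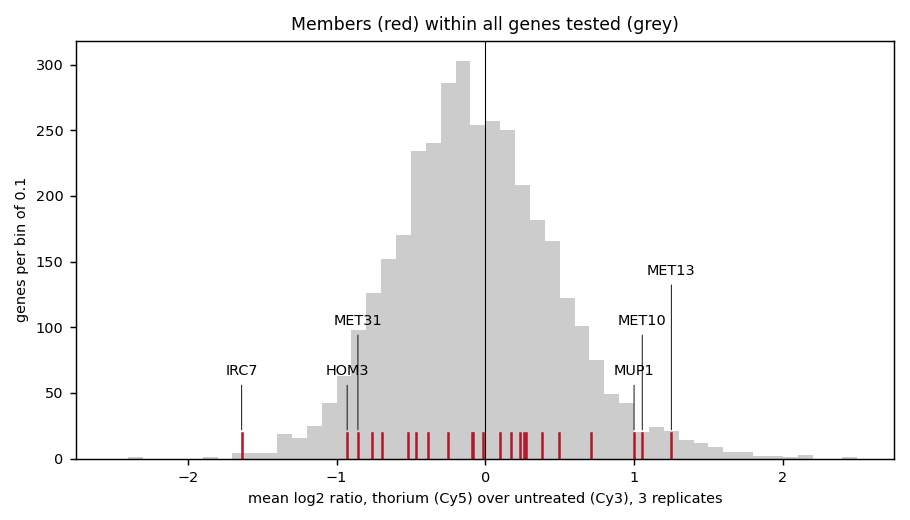
Mean log2 ratio over 3 replicates, as a histogram of all 3613 genes tested (grey, genes per bin of 0.1) with a red tick for each of the 23 members. The ticks spread over the histogram from IRC7 at -1.64 to MET13 at 1.25 around a median of -0.02.

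Without replicate 1, on 2 replicates, 2 members passed the threshold and both fell, beside 3.04% of all genes that fell and 2.24% that rose, 5.29% in all. They were IRC7 (mean -1.66, adjusted p = 0.0390) and HOM3 (mean -1.36, adjusted p = 0.0397). Over all alternatives the adjusted p ran from 0.0390 to 0.882 for IRC7 and from 0.0397 to 0.882 for HOM3, with a mean below 0 in each.

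Among the transporters, the genes for taking up sulfate and methionine had ratios above 0 in every replicate that measured them. MUP1, the high-affinity methionine permease, read 0.67, 1.72 and 0.61 in replicates 1, 2 and 3. Its mean was 1.00 (95% interval 0.19 to 1.81; adjusted p = 0.299), with replicate 2 far above the others, and it was 0.64 without that replicate. After the array position was taken out with a loess it was 0.63. SUL1, a high-affinity sulfate permease, had no value in replicate 1 and read 1.42 and 0.89 in replicates 2 and 3. After the median of its array section, a group of 36 probes with neighbouring numbers, was subtracted (section-centring), the values of SUL1 were 1.73 and 0.96. The S-adenosylmethionine permease SAM3 read -0.15, 2.01 and 0.27. As deposited, its mean of 0.71 (-0.39 to 1.81; adjusted p = 0.509) rests on replicate 2 and was 0.06 without it. After section-centring SAM3 read 0.85, 1.27 and 0.13 in replicates 1, 2 and 3, above 0 in each. The mean of SAM3 was then 0.75, and 0.88 after the loess. The lower-affinity methionine permease MUP3 stood nearer to 0 as deposited, at 0.23 ± 0.16 (SD, n = 3). After section-centring MUP3 stood at 0.60, beside 0.72 for MUP1, and after the loess at 0.51, beside 0.63. MMP1, which imports S-methylmethionine, was measured in replicate 1 alone, at 0.68.

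**Figure D3:**
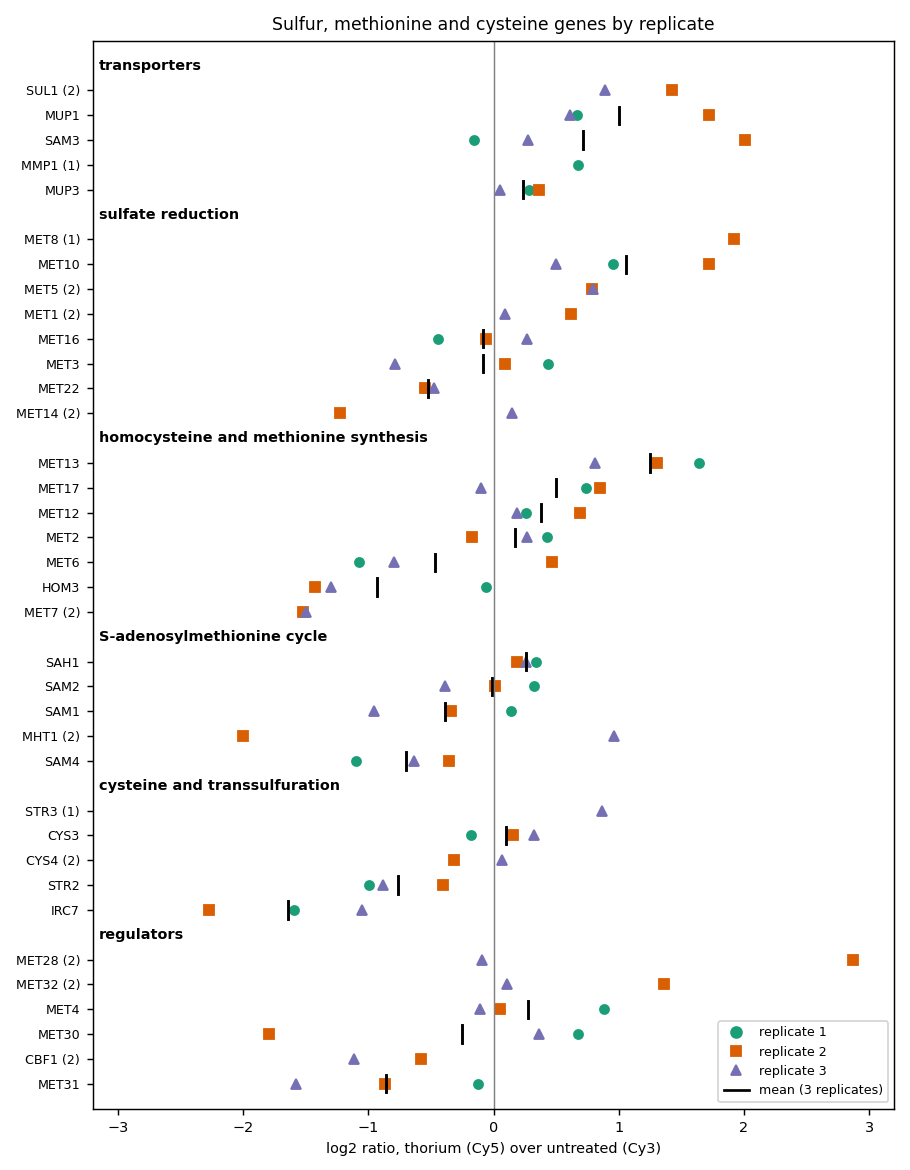
Log2 ratios of thorium-treated over untreated cells for the 36 members with a probe, by role, each point a replicate and each black bar the mean of 3 replicates. Numbers after a gene give its replicates where these are fewer than 3. Values are as deposited. IRC7 lies below 0 and MET13 above 0 in every replicate. Replicate 2 holds the point farthest from 0 on either side, MET28 at 2.87 and IRC7 at -2.27.

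In the sulfate reduction branch, the sulfite reductase and siroheme genes lay above 0 as deposited, MET1 not so after section-centring. The genes that activate sulfate and reduce the activated form had means below 0 as deposited, but replicates on both sides of it. MET10, the alpha subunit of sulfite reductase, read 0.95, 1.72 and 0.49 in replicates 1, 2 and 3, above 0 in each. Its mean was 1.05 (95% interval 0.25 to 1.86; adjusted p = 0.299). The probe of MET10 sat in an array section whose median over the scans was 0.58, and after section-centring the mean was 0.32. MET5, the beta subunit, read 0.78 and 0.80 in replicates 2 and 3, but its scans disagreed, with 1.38 and 1.28 at high power and 0.18 and 0.31 at low power. Section-centred values of MET5 were 0.62 and 0.17. The siroheme cofactor of this enzyme is made by Met1 and Met8, and MET1 read 0.62 and 0.09 in replicates 2 and 3 while MET8 had 1 value, 1.92 in the high power scan of replicate 2. After section-centring MET1 stood at 0.28 and -0.48, with a mean of -0.10 on the other side of 0.

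MET3, the ATP sulfurylase that opens the pathway, read 0.44, 0.09 and -0.79, a spread over both sides of 0 with a mean of -0.09 ± 0.63 (SD, n = 3). MET14, the kinase that acts next, read -1.23 and 0.15 in replicates 2 and 3. After section-centring MET14 stood at -1.25 and -0.27, below 0 in both. MET16, which reduces the activated sulfate, stood at -0.08 ± 0.35 (SD, n = 3) as deposited. MET22, the phosphatase that clears the nucleotide by-product of that reduction, had the smallest SD (0.04) of the 23 members with 3 replicates. MET22 read -0.55, -0.54 and -0.47, below 0 in all 6 scans, with a mean of -0.52 (-1.17 to 0.12; adjusted p = 0.428) and of -0.29 after section-centring.

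In homocysteine and methionine synthesis the 6 genes with 3 replicates lay between HOM3 at -0.93 and MET13 at 1.25. MET13, the main methylenetetrahydrofolate reductase, which makes the methyl group for methionine, read 1.64, 1.30 and 0.81 in replicates 1, 2 and 3 and was above 0 in all 6 scans. Its mean of 1.25 (95% interval 0.53 to 1.97; adjusted p = 0.271) ranked 67 from the top of 3613 genes, and it stayed at 1.06 after section-centring and at 0.83 after the loess over array position. Its paralog MET12 read 0.26, 0.69 and 0.19, with a mean of 0.38 (-0.30 to 1.06; adjusted p = 0.558), of 0.08 after section-centring and of 0.22 without replicate 2. The ratio of MET13 exceeded that of MET12 in each replicate, by a mean of 0.87 ± 0.44 (SD, n = 3), and an exact two-sided sign-flip test gave p = 0.25, the smallest that 3 replicates allow.

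HOM3, the aspartate kinase at the start of the homoserine supply, read -0.06, -1.43 and -1.30, near 0 in replicate 1 and well below it in the others. Its mean was -0.93 (-1.80 to -0.06; adjusted p = 0.341), and -0.47 after section-centring. MET17, which joins sulfide to O-acetylhomoserine, read 0.74, 0.85 and -0.10, with a mean of 0.50 (-0.26 to 1.26; adjusted p = 0.506). MET17 stood at 0.28 after section-centring, at 0.32 without replicate 2 and at 0.79 without replicate 3. MET2, which makes O-acetylhomoserine, stood at 0.17 ± 0.31 (SD, n = 3), with 0.048 without replicate 1 and 0.35 without replicate 2. After section-centring MET2 read 0.13, 0.49 and 1.02 in replicates 1, 2 and 3, with a mean of 0.55, and of 0.53 after the loess.

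MET6, the methionine synthase, read -1.07, 0.46 and -0.79, and replicate 2 opposed the others as deposited. After section-centring MET6 read -0.10, -0.19 and -0.74 in replicates 1, 2 and 3, below 0 in each, with a mean of -0.34. The mean of MET6 as deposited, -0.47 (-1.37 to 0.44; adjusted p = 0.592), was -0.16 without replicate 1 and -0.93 without replicate 2. MET7, which adds glutamates to folates and is needed for methionine synthesis, was measured only at high power and only in replicates 2 and 3, at -1.52 and -1.50. Section-centred values of MET7 were -0.78 and -1.02.

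In the S-adenosylmethionine cycle the synthetase genes had values on both sides of 0, SAH1 lay slightly above it and SAM4 below it. SAM1 and SAM2 are near-identical genes for S-adenosylmethionine synthetase whose probes may share signal. SAM1 read 0.14, -0.34 and -0.96 and SAM2 read 0.33, 0.01 and -0.39 in replicates 1, 2 and 3, each on both sides of 0. The mean of SAM1 was -0.39 (95% interval -1.16 to 0.39; adjusted p = 0.601) and -0.11 after section-centring, and it was -0.65 without replicate 1 and -0.10 without replicate 3. The mean of SAM2 was -0.02 ± 0.36 (SD, n = 3), and 0.28 after section-centring. In replicate 2 the scans of SAM2 gave -0.42 at high and 0.44 at low power.

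SAH1, which hydrolyses the S-adenosylhomocysteine left by methylation, lay above 0 in all 6 scans, at 0.26 ± 0.08 (SD, n = 3). SAM4, which recycles homocysteine to methionine with S-adenosylmethionine as methyl donor, read -1.10, -0.36 and -0.64 and was below 0 in all 6 scans. Its mean was -0.70 (-1.41 to 0.01; adjusted p = 0.362). The probes around that of SAM4 had a section median of 0.49, and with it subtracted SAM4 stood at -1.18 ± 0.32 (SD, n = 3), farther from 0 than as deposited. MHT1, which does the same with S-methylmethionine, had opposite values in its 2 replicates, -2.00 in replicate 2 and 0.96 in replicate 3, each from the high power scan alone.

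Among the cysteine genes IRC7 had the mean farthest from 0, with rank 4 from the lowest of 3613 genes. IRC7, which breaks cysteine down with release of sulfide, read -1.59, -2.27 and -1.05 in replicates 1, 2 and 3, and its 6 scans lay between -2.73 and -0.94. Its mean was -1.64 (95% interval -2.44 to -0.84; adjusted p = 0.271 over all genes, with rank 21 by unadjusted p). After section-centring its values were -1.60, -1.64 and -0.72, and no alternative moved the mean above -1.32 or below -1.93.

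STR2, the cystathionine synthase that leads from cysteine towards methionine, read -0.996, -0.401 and -0.883. Its mean was -0.76 (-1.45 to -0.07; adjusted p = 0.327), in an array section with a median of -0.58, and it was -0.13 after section-centring. CYS3 and CYS4, the lyase and synthase that make cysteine from homocysteine, were near 0, CYS3 at 0.10 ± 0.26 (SD, n = 3) and CYS4 at -0.32 and 0.07 in replicates 2 and 3. STR3, the lyase that returns cystathionine to homocysteine, had 1 value, 0.86 in replicate 3.

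Of the 6 regulators 3 had no value in replicate 1. MET31, a zinc finger protein that recruits Met4, read -0.13, -0.86 and -1.58, below 0 in each replicate. Its mean was -0.86 (95% interval -1.71 to 0.00; adjusted p = 0.361), and it was -0.25 after section-centring and -0.50 without replicate 3. Its partner MET32 read 1.36 and 0.11 in replicates 2 and 3, and CBF1, the helix-loop-helix factor, read -0.58 and -1.11. After section-centring CBF1 stood at 0.47 and 0.09, with the opposite sign. MET28, the cofactor of Met4, read 2.87 in the high power scan of replicate 2 and -0.09 in replicate 3. After section-centring MET28 stood at 1.19 and -0.35 in replicates 2 and 3, and MET32 at 0.41 and 0.04. The transcript of the activator itself, MET4, stood at 0.27 ± 0.53 (SD, n = 3) as deposited, with 0.88 in replicate 1 and values near 0 in the others. After section-centring MET4 read 0.69, 0.22 and 0.34 in replicates 1, 2 and 3, above 0 in each. Its mean was then 0.42, and 0.60 after the loess. MET30, the inhibitor of Met4, read 0.68, -1.79 and 0.36, the widest spread of the 23 members (SD 1.34). Met4 is known to be controlled largely at the level of the protein, which these arrays do not measure.

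In total, 13 members with a probe lacked a value in at least 1 replicate, 12 of them in replicate 1. Of the 10 measured in 2 replicates, SUL1, MET5, MET1 and MET32 were above 0 in both as deposited, and MET7 and CBF1 below 0 in both. MET14, MHT1, CYS4 and MET28 had 1 of each sign as deposited. In a fit over genes with at least 2 replicates 0 of 33 members passed, with MET7 (adjusted p = 0.262) and SUL1 (adjusted p = 0.279) smallest among those 10. Whether having a value depended on the signal in thorium-treated cells was not tested.

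**Figure D4:**
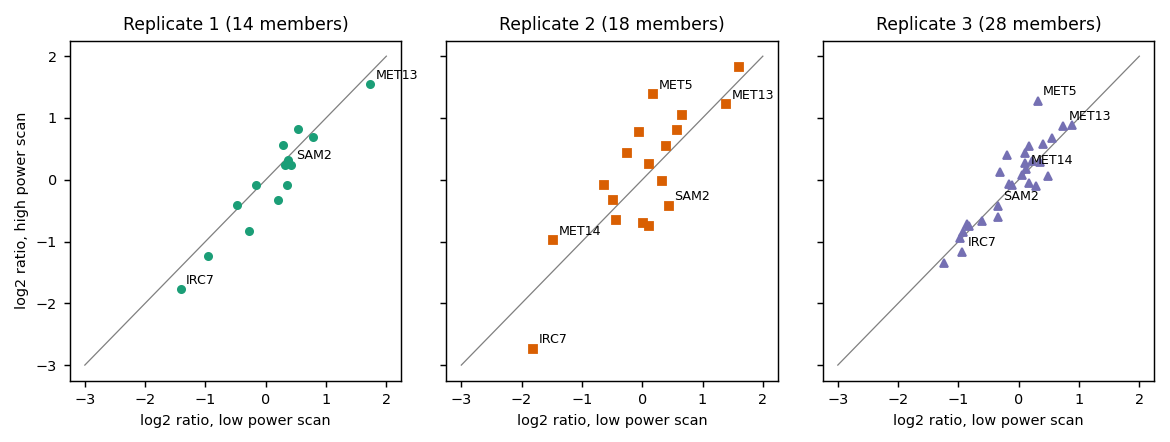
Log2 ratio in the high power scan against that in the low power scan of the same array, for the members with both (14, 18 and 28 in replicates 1, 2 and 3), with the line of equality. Points lie near the line in replicates 1 and 3 and scatter most in replicate 2. MET5 lies above the line in both replicates that measured it, and IRC7 is the lowest point in replicates 1 and 2 but not in replicate 3, where HOM3 lies below it.

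The laser powers agreed least in replicate 2. The median absolute difference between the scans of a member was 0.23, 0.45 and 0.14 in replicates 1, 2 and 3, beside 0.35, 0.46 and 0.11 over all genes. MET5 had the largest difference of any member in replicates 2 and 3 (1.20 and 0.96), and MET22 in replicate 1 (0.55). Of the 9 members with all 6 scans, MET13 and SAH1 were above 0 in every scan, and IRC7, SAM4 and MET22 were below 0 in every scan.

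**Figure D5:**
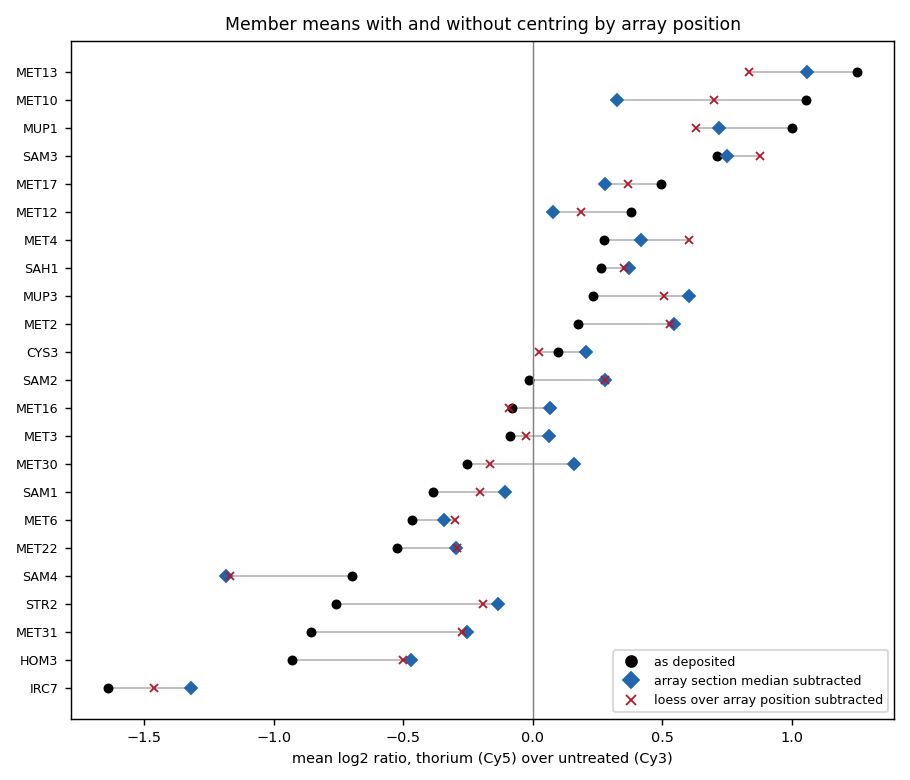
Mean log2 ratio of the 23 members as deposited (black circles), after subtracting the median of the array section (blue diamonds) and after subtracting a loess over array position (red crosses). IRC7, SAM4 and MET13 have the values farthest from 0 after section-centring. MET10, HOM3, MET31 and STR2 move towards 0 by more than 1.5 times under section-centring. So do MET22, MET17, SAM1 and MET12, which lie nearer to 0 as deposited.

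Genes that feed sulfur metabolism or draw on it, in 8 lists that exclude the members, had 35 of 49 tested means below 0 and 14 above, beside 56.5% of all genes below, and 0 of the 49 passed the threshold in limma. At an unadjusted p under 0.05 there were 7, all lower, beside 8.11% of all genes. For the counts of each list given next, the shares of all genes were 23.2% below 0 in every replicate and 15.4% above. Among the genes from aspartate to homoserine and threonine, 3 of 5 were below 0 in every replicate and 0 above, with a median of -0.67. The 3 were AAT2, THR4 and HOM2. Farthest from 0 were AAT2, the cytosolic aspartate aminotransferase, at -1.18 ± 0.40 (SD, n = 3; adjusted p = 0.271), followed by the threonine synthase THR4 at -0.87 ± 0.46 and the homoserine dehydrogenase HOM6 at -0.67 ± 0.97, which was -0.15 without replicate 1. Of 8 genes for folate and its carbon units, 6 were below 0 in every replicate and 1, ADE3, above, with a median of -0.69. FOL1, a folate synthesis enzyme, stood at -1.10 ± 0.47 (SD, n = 3; adjusted p = 0.291), the methylenetetrahydrofolate dehydrogenase MTD1 at -0.85 ± 0.69 and GCV3, a subunit of glycine decarboxylase, at -0.84 ± 0.50. In the same folate pathway MET13 had a value above 0 while most of the supply enzymes had values below it.

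In methionine salvage and repair of oxidised methionine, 4 of 8 genes were below 0 in every replicate and 1 above (median -0.46). MEU1, the methylthioadenosine phosphorylase, read 0.34, -1.88 and -1.40, a mean of -0.98 that passed as lower on replicates 2 and 3 alone (mean -1.64). The salvage enzymes ADI1 and MDE1 stood at -0.52 ± 0.13 and -0.51 ± 0.24 (SD, n = 3). Among genes that use S-adenosylmethionine, 2 of 10 were below 0 in every replicate and 1 above (median -0.04). These shares, 20% and 10%, were under those of all genes (23.2% and 15.4%). SPE2, the decarboxylase that commits S-adenosylmethionine to polyamines, stood at -0.74 ± 0.52, the spermidine synthase SPE3 at -0.57 ± 0.25, and STE14, a methyltransferase of prenylated proteins, at 0.56 ± 0.98 (SD, n = 3), which was 1.00 without replicate 1.

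The glutathione list had 3 of 6 genes below 0 in every replicate and 1 above (median -0.21). The glutathione reductase GLR1 stood at -0.94 ± 0.32 (SD, n = 3; adjusted p = 0.299), the peptidase DUG1 at -0.44 ± 0.08 and the glutathione transferase GTT1 at 0.38 ± 0.43. GSH1, which commits cysteine to glutathione, stood close to 0 at 0.14 ± 0.03 (SD, n = 3). Of 5 genes for other sulfur sources and sulfite export 3 were below 0 in every replicate and 1 above (median -0.31). The sulfite pump SSU1 stood at -0.97 ± 1.10 (SD, n = 3) and at -0.35 without replicate 1, and the permease GNP1 at -0.35 ± 0.20. OPT1, the peptide and glutathione transporter, stood at 0.95 ± 1.08 (SD, n = 3). It read 0.03, 2.15 and 0.66 in replicates 1, 2 and 3, with replicate 2 far above the others. The 4 measured genes of the ubiquitin ligase that contains Met30 and of its partners had means below 0, 3 of them in every replicate (median -0.44), with CDC48 at -0.66 ± 0.51, UFD1 at -0.47 ± 0.09 and RUB1 at -0.41 ± 0.63 (SD, n = 3). The list of sulfur-sparing and other Met4-linked genes had 3 measured members, none with 1 sign in every replicate, and means of 0.16 for PDC6, -0.03 for YHR112C and 0.01 for TRX2.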

How the data were processed

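The deposited table holds a ratio per spot and scan. The authors ran a LOWESS normalization on spots flagged 0, per the labels, and the deposited values are read here as log2 ratios. Scans merged in GeneSpring, per the labels, were not used here. The background step, the scanner and signal intensities were not given in the sources used here, so brightness is unknown, and LOWESS hides a change shared by most genes. Precision is limited by the number of arrays.

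Of 6912 probes, 5513 carried 1 gene name, 1399 none and 0 several. The 36 member symbols matched the reference gene table. No genome build is named, so no coordinates are given. Values were averaged over the probes of a gene and next over the scans of each replicate. The 3613 genes measured in each of 3 replicates were tested against 0 with limma 3.58.1 (R 4.3.3; lmFit, eBayes, two-sided, Benjamini-Hochberg, threshold 0.05; 2 residual and 4.43 prior degrees of freedom). Exact sign-flip tests compared 4 pairs of related members.

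Array sections were read from the first 3 digits of the probe number, a layout inferred from the numbers. Section-centring subtracts a section's median where it has at least 5 values in a scan, and the loess uses a span of 0.05. The other alternatives are named in the section on processing. On simulated data for thorium over untreated cells (3613 genes, 200 changed, 5 runs) limma recovered 5.2% of genes changed by 1 on the log2 scale, 54.4% by 2, 81.6% by 3 and 89.6% by 4, with 10 false calls of 587.

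The members and lists were chosen with earlier results of these data known. Named with replicate values were to be the 14 measured members with the largest absolute mean, and up to 3 genes with the largest absolute mean of each other list. SAM2, MET3, MET30, GSH1, HOM2 and the members without 3 replicates were given in addition, for their roles and with their values seen.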

Additional observations from a re-analysis of the deposited data

How the results depend on the processing

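The count of members past the threshold was 0 in the main analysis and in 13 of 14 alternatives, and leaving out a replicate gave 0 to 2 members and 0 to 191 of all genes. On the 23 members, 9 were above 0 in every replicate and 5 below after section-centring, 8 and 6 after the loess, and 5 and 7 in the high power scans alone. In the main analysis members above 0 in every replicate numbered 6. They numbered 2 in the low power scans alone, 3 among genes in both scans of all replicates and 10 among genes in at least 2 replicates. Those below 0 numbered 6 in the main analysis, with 3 at low power alone and 3 among genes in both scans. Both of these settings hold 9 members, and the fit on at least 2 replicates holds 33. Leaving out a replicate gave 8 to 10 members above 0 and 7 below 0 in both replicates left. The fit on at least 2 replicates gave 8 below 0. Fewer values need to share a sign in these settings, so their counts cannot fall under those of the main analysis. The median of the members moved by less than the spread of the replicate medians (SD 0.18) in each alternative. Of 23 members 17 kept their sign in every alternative that gave a value. The other 6 have means between -0.25 and 0.27 and none passed in any setting. SAM2 stood at 0.17 in the low power scans, 0.041 with median centring, 0.031 with quantile normalization, 0.28 with section-centring and 0.28 with the loess, and ran from -0.19 to 0.17 without a replicate. MET3 stood at 0.042 in the high power scans and 0.062 with section-centring (-0.35 to 0.26 without a replicate). MET16 stood at 0.065 with section-centring and 0.046 with array weights (-0.25 to 0.10 without a replicate). MET30 stood at 0.16 with section-centring. Without a replicate MET30 ran from -0.72 to 0.52, MET4 from -0.030 to 0.47 and CYS3 from -0.014 to 0.24. The cause was not tested in any of these cases. A fit of all 6 scans with the replicate block changed no call (median of the members -0.02), nor did a robust prior. Background correction and a filter on dim probes could not be varied without signal intensities.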

Other observations

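In the reference gene table SAM3 and SAM4 are next to each other on their chromosome, as are MHT1 and MMP1, and each pair joins a permease for a methyl donor to the enzyme that uses that donor. The neighbours SAM3 and SAM4 had ratios on opposite sides of 0 as means. The ratio of SAM3 exceeded that of SAM4 by 0.95, 2.37 and 0.91 in replicates 1, 2 and 3, a mean of 1.41 ± 0.83 (SD, n = 3; exact two-sided sign-flip p = 0.25, the smallest that 3 replicates allow, and 0.25 adjusted over 4 pairs). The other pairs compared in this way were the permeases MUP1 and MUP3, with a mean difference of 0.77 ± 0.52, the synthetases SAM1 and SAM2, with -0.37 ± 0.19, and the reductases MET13 and MET12 (exact p = 0.25 for each). All these differences are between values as deposited. After section-centring MUP1 and MUP3 lay close together, with means of 0.72 and 0.60. In replicate 3 MUP3, at 0.19, was then above MUP1, at 0.12. MHT1 and MMP1 were never measured in the same replicate, so that pair could not be compared.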
